A study of Homo sapiens with 6 samples.

Results

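Transcripts of 10 genes that store, import, export or sense iron (FTH1, FTL, TFRC, TF, SLC40A1, SLC11A2, ACO1, IREB2, NCOA4 and STEAP3) were followed in A549 cells after knock-down of KMT9α. The genes were taken by symbol from a table of 23180 gene symbols, all 10 were listed, and each was read from the transcript that had the most counts in the 6 samples together. A549 is an established human lung adenocarcinoma cell line, and all samples carry the WT genotype label and were at passage 11. RNA was sequenced from 3 samples transfected with a control siRNA (siControl) and 3 samples transfected with siKMT9α#1, an siRNA against KMT9α, the catalytic subunit of the histone methyltransferase KMT9, each 3 days after transfection. Both groups come from the same cell line and a single siRNA was sequenced, so that loss of KMT9α and other effects of this siRNA cannot be told apart.

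Cells take up iron bound to transferrin (TF) through the transferrin receptor (TFRC), reduce it in the endosome with STEAP3 and move it to the cytosol through DMT1, the product of SLC11A2. Spare iron is stored in a shell built from ferritin heavy (FTH1) and light (FTL) chains, is released when NCOA4 carries ferritin to the lysosome, and leaves the cell through ferroportin, the product of SLC40A1. The iron regulatory proteins IRP1 (ACO1) and IRP2 (IREB2) tie these steps together by binding a short hairpin, the iron-responsive element, when iron is scarce. An element in the 5′ UTR blocks translation, and elements in the 3′ UTR of TFRC protect the mRNA from decay.

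Matches to the iron-responsive element are shown because the iron regulatory proteins recognise transcripts by hairpins of this form. They were searched in annotated 5′ and 3′ UTRs of GRCh37 on the sense strand as a C, 5 bases, the loop CAGTG followed by A, C or T, and 5 bases that pair with the first 5, allowing G-U pairs, and in a looser form with 1 unpaired base in the 3′ arm. The capitals mark the 6 bases of the loop, and 5 bases are printed on either side of the hairpin.
FTH1, 5′ UTR, chr11:61735047-61735073, minus strand: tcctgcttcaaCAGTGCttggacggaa
FTL, 5′ UTR, chr19:49468593-49468619, plus strand: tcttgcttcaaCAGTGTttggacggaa
SLC40A1, 5′ UTR, chr2:190445388-190445414, minus strand: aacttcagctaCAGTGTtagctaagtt
TFRC element 1, 3′ UTR, chr3:195777851-195777877, minus strand: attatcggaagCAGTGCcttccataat
TFRC element 2, 3′ UTR, chr3:195777447-195777473, minus strand: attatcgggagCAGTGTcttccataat
TFRC element 3, 3′ UTR, chr3:195777382-195777408, minus strand: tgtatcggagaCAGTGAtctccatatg
TFRC element 4, 3′ UTR, chr3:195777335-195777361, minus strand: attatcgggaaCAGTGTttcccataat
SLC11A2, 3′ UTR, chr12:51382052-51382079, minus strand: gccatcagagcCAGTGTgtttctatggt
IREB2, 3′ UTR, chr15:78793312-78793339, plus strand: atttgctttcaCAGTGAtgagtgagagg

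The hairpins of FTH1 and FTL lie in the first exon, and that of SLC40A1 in the first exon of 1 of its 5 annotated coding transcripts. The 4 that this search found in TFRC lie in its last exon, and hairpins of another form would have been missed. Those of SLC11A2 and IREB2 were found in the looser form, in 4 of 17 and 1 of 4 annotated coding transcripts. Over all annotated genes the strict form occurred in the 5′ UTR of 28 of 19264 genes and in the 3′ UTR of 113 of 19284. Among the genes tested whose UTR was within 20% of the member's length, the strict form was present in 0.138% for FTH1, 0.0935% for FTL, 0.114% for SLC40A1 and 0.898% for TFRC. With the looser form the share was 1.74% for SLC11A2 and 2.65% for IREB2, and a match describes the sequence without testing binding. No strict or looser match was found in the UTRs of ACO1, NCOA4 or STEAP3, which says only that these letters are not in those windows. A match in TF lay beyond the end of the deposited TF transcript and is not shown.

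Totals over 1 transcript per gene were 15551778 to 18568639.5 counts for siControl and 13740097 to 19832396 for siKMT9α#1. N6AMT1, which encodes KMT9α, was at 10.2 to 11.4 CPM (counts of a gene scaled to the size of its library with TMM factors) in siControl and 2.87 to 3.35 in siKMT9α#1. All 5 epithelial markers looked up were detected, KRT8 at 502 to 1346 CPM, and their summed level was 3214 to 3576 CPM in siControl and 1725 to 1816 in siKMT9α#1. KRT8 and KRT18 made up most of that sum, and CDH1 went the other way, at 2.35 to 4.25 CPM in siControl and 7.82 to 9.68 in siKMT9α#1. EPCAM was low, at 3.46 to 4.25 CPM in siControl and only 0.438 to 0.756 in siKMT9α#1. The 4 markers that are high in A549 summed to 3999 to 4207 CPM in siControl and 4153 to 4323 in siKMT9α#1, within which ALDH1A1 was higher (1874 to 2019.9 against 3087 to 3236) and AKR1C1 lower (515 to 523 against 103 to 108) in every knock-down sample. CDKN2A, which is deleted in A549, and the fibroblast marker COL1A2 were at 0 counts in all 6 samples, and the leukocyte marker PTPRC was at 0.105 CPM or less. The 4 fibroblast markers summed to 4.2 to 4.83 CPM in siControl and 2.92 to 3.40 in siKMT9α#1. COL1A1 made up most of that sum, at 3.95 to 4.52 CPM in siControl and 2.72 to 2.88 in siKMT9α#1. The 2 endothelial markers stayed under 1 CPM, and CD68 went from 77.7 to 84.5 CPM to 27.0 to 28.6 CPM. The part of these marker shifts in the results for the iron genes was not tested. In bulk RNA, fewer cells with a transcript and less of it per cell cannot be told apart.

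After knock-down 3 transcripts of iron uptake rose and that of the iron exporter fell. TFRC, STEAP3 and SLC11A2 rose 2.09- to 2.34-fold and SLC40A1 was 2.19-fold lower. Of the storage genes, NCOA4 was 1.28-fold, FTH1 1.18-fold and FTL 1.15-fold lower, but the FTL change turned to 0.05 on the log2 scale when GC content and length were allowed for. Of the regulators, ACO1 rose and IREB2 fell. A gene was called where its Benjamini-Hochberg adjusted p, over 13877 genes in the quasi-likelihood test of edgeR, was under 0.05. Of the 10 genes 9 passed the filter on low counts, 4 were called higher and 5 lower, in an experiment in which 75.6% of all genes tested were called, 37.1% higher and 38.5% lower. At the study's stricter threshold (P below 1e-08 and a log2 fold change beyond 0.26 either way) 24.2% of all genes passed in this test. At that threshold 4 members were higher (TFRC, STEAP3, SLC11A2 and ACO1) and 2 lower (SLC40A1 and IREB2), beside 13.5% and 10.7% of all genes. The members' median log2 fold change was -0.21, and that over all genes tested was -0.01. With the library size alone as the scaling, the median over all genes moved to -0.12. Of the genes called here at the study's threshold, the share that were higher went from 55.9% to 44.9%.

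**Figure D1:**
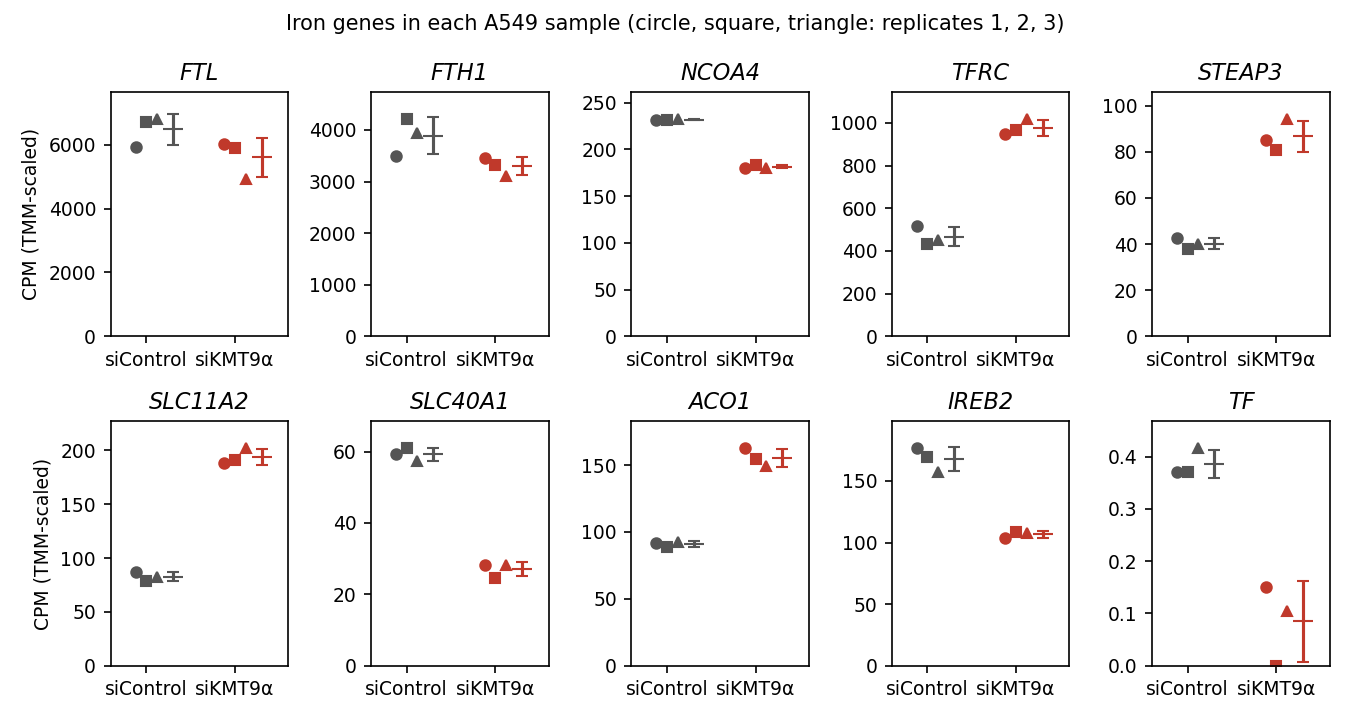
CPM scaled by TMM factors (y axis, from 0, a scale of its own for each gene) of the 10 iron genes in the 3 siControl samples (grey) and the 3 siKMT9α#1 samples (red). Each symbol is a sample and the bar is the mean ± SD (n = 3). The groups are apart in every panel except that of FTL, as they are for 77.0% of all genes tested.

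Ferritin transcripts were the most abundant of the set. FTL (NM_000146, chr19:49468566-49470136, plus strand) encodes the light chain, which helps the iron core form. Its CPM, in the order of the replicate numbers here and in what follows, were 5927, 6700.0 and 6798 in siControl and 6023, 5899 and 4911 in siKMT9α#1. Control replicate 1 lay below knock-down replicate 1, so that the groups overlapped, and knock-down replicate 3 was the lowest sample. On average FTL fell by 0.21 ± 0.07 (SE) on the log2 scale (edgeR quasi-likelihood adjusted p = 0.0136). It was -0.17, -0.16 and -0.12 without control replicate 2, control replicate 3 or knock-down replicate 3 (adjusted p = 0.0647, 0.111 and 0.0570), and 0.05 with offsets that allow for GC content and length in each sample (adjusted p = 0.370).

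FTH1 (NM_002032, chr11:61731757-61735132, minus strand) encodes the heavy chain, which oxidises iron as it enters the shell. Its CPM were 3502, 4208 and 3944 in siControl and 3452, 3318 and 3111 in siKMT9α#1. The groups did not overlap, although control replicate 1 and knock-down replicate 1 were close, and 77.0% of all genes tested had groups that did not overlap. FTH1 fell by 0.24 ± 0.06 (SE) on the log2 scale (edgeR quasi-likelihood adjusted p = 0.00219), and by 0.11 with the GC and length offsets (adjusted p = 0.0427). Both ferritin genes have near-identical processed pseudogenes, and the annotation lists 25 numbered ones for FTH1 and 16 for FTL. How reads shared with them were counted is not stated. The pseudogene FTH1P3 is in the table with 50 to 82.5 counts per sample, FTLP10 is at 0, and the mitochondrial ferritin gene FTMT is at 0 in all 6 samples. The deposited span of FTH1 overlaps that of BEST1 by 179 bases, and BEST1 had 602.5 counts in all samples together.

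NCOA4 (NM_001145261, chr10:51565108-51590734, plus strand) encodes the cargo receptor that delivers ferritin to autophagosomes. It was at 232, 232 and 232 CPM in siControl and at 180.3, 183 and 180.4 CPM in siKMT9α#1. The samples of each group were close together and the groups were well apart. NCOA4 fell by 0.36 ± 0.04 (SE) on the log2 scale (edgeR quasi-likelihood adjusted p = 6.04e-07), which is short of the study's threshold on P in this test. With the likelihood-ratio test and some other alternatives it passed that threshold. The 5 listed NCOA4 transcripts, which share nearly all reads, ran from -0.36 to -0.35. The annotation holds 4 numbered NCOA4 pseudogenes.

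The transferrin receptor gene TFRC (NM_003234, chr3:195776155-195808961, minus strand), with the 4 hairpins shown above, was at 516, 431 and 451 CPM in siControl and at 945, 966 and 1017 CPM in siKMT9α#1. Every knock-down sample had more than any control sample. TFRC rose 2.09-fold, or by 1.07 ± 0.06 (SE) on the log2 scale (edgeR quasi-likelihood adjusted p = 5.06e-12). Of the genes tested, 81.5% had a smaller absolute log2 fold change.

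STEAP3 (NM_182915, chr2:119981384-120023227, plus strand) encodes the ferrireductase of the transferrin endosome. It was at 42.5, 37.8 and 39.8 CPM in siControl and at 84.9, 80.9 and 94.1 CPM in siKMT9α#1. The highest control sample was well below the lowest knock-down sample. STEAP3 rose 2.17-fold, or by 1.12 ± 0.06 (SE) on the log2 scale (edgeR quasi-likelihood adjusted p = 6.55e-12).

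TF (NM_001063, chr3:133464977-133497850, plus strand), the plasma iron carrier made mainly by liver, was barely detected and did not pass the filter on low counts. It had 7, 6 and 8.5 estimated counts in siControl and 2, 0.5 and 2 in siKMT9α#1. The 0.5 was rounded to 0 for CPM. All knock-down samples were below all control samples, at levels near the limit of counting. From the summed counts (21 against 4 after rounding) TF was at 0.225 times its control level, with an exact 95% interval of 0.0560 to 0.665 that covers counting error only.

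SLC11A2 (NM_000617, chr12:51379775-51420199, minus strand) encodes DMT1, which carries ferrous iron out of the endosome. It was at 87.2, 79.0 and 82.2 CPM in siControl and at 189, 191 and 202 CPM in siKMT9α#1. The groups were far apart, and this was the largest estimated rise among the members tested. SLC11A2 rose 2.34-fold, or by 1.23 ± 0.05 (SE) on the log2 scale (edgeR quasi-likelihood adjusted p = 6.57e-14).

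The 9 listed transcripts of SLC11A2 fall into 2 kinds by their 3′ end. In 6 the 3′ end lies at chr12 position 51379775, beyond the hairpin shown above, and in 3 it lies further downstream at position 51373566. In the annotation, 4 coding transcripts hold the hairpin and none of the 4 that end in the downstream exon does. The values above are those of NM_000617, with the upstream end. NM_001174126, which has the same start and the downstream end, was at 48.5, 43.8 and 42.7 CPM in siControl and 77.4, 81.4 and 86.3 CPM in siKMT9α#1. The counts given to both kinds rose, the first by 1.23 and the second by 0.86 on the log2 scale when every transcript was fitted (SE 0.05 and 0.06, edgeR quasi-likelihood adjusted p = 3.97e-15 and 2.48e-11). The log2 ratio of the downstream to the upstream end per kilobase was -0.71, -0.71 and -0.81 in siControl and -1.15, -1.09 and -1.09 in siKMT9α#1. The groups did not overlap, with a difference of -0.37 and a two-sided exact permutation p = 0.1, the smallest that 3 samples against 3 can give. Whether transcripts with the downstream end rose by themselves was not tested, because reads in the shared exons count for both kinds. For the same reason the ratio is not that of the separate exons. This pair was chosen after its values were seen.

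SLC40A1 (NM_014585, chr2:190425316-190445537, minus strand) encodes ferroportin, the iron exporter of the cell surface. It was at 59.4, 60.9 and 57.3 CPM in siControl and at 28.1, 24.7 and 28.1 CPM in siKMT9α#1. The highest knock-down sample was far below the lowest control sample, and this was the largest estimated fall among the members tested. SLC40A1 was 2.19-fold lower and fell by 1.13 ± 0.06 (SE) on the log2 scale (edgeR quasi-likelihood adjusted p = 5.31e-12).

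The transcripts of the iron regulatory proteins moved in opposite directions, and the proteins were not measured here. ACO1 (NM_002197, chr9:32384601-32450832, plus strand) encodes IRP1, which is an aconitase when it holds an iron-sulphur cluster and binds RNA when it does not. It was at 91.9, 88.8 and 92.9 CPM in siControl and at 162, 154 and 149 CPM in siKMT9α#1. The groups did not overlap and ACO1 rose 1.70-fold (0.77 ± 0.05 (SE) on the log2 scale, edgeR quasi-likelihood adjusted p = 3.82e-11). IREB2 (NM_004136, chr15:78730518-78793798, plus strand) encodes IRP2, which is degraded in iron-replete cells through the ubiquitin ligase subunit FBXL5. It was at 176, 169.5 and 158 CPM in siControl and at 104, 109 and 107 CPM in siKMT9α#1. The groups again did not overlap, and IREB2 was 1.57-fold lower (-0.65 ± 0.05 (SE) on the log2 scale, edgeR quasi-likelihood adjusted p = 8.54e-10). IREB2 was the only one of the 10 genes whose annotated 3′ UTR holds ACATTCA, the 7-mer that pairs with the seed of siKMT9α#1, with 1 copy in 3310 bases. That 7-mer was present in the 3′ UTR of 11.8% of the genes tested and of 25.7% of those with a 3′ UTR within 20% of that length. The part of the seed match in the change of IREB2 was not tested.

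**Figure D2:**
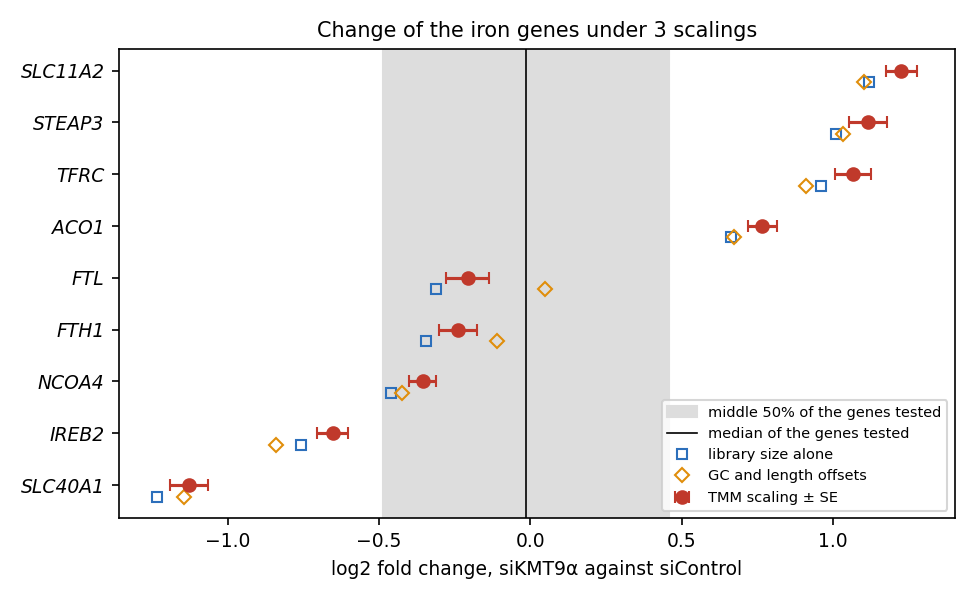
Log2 fold change of siKMT9α#1 against siControl (x axis) for the 9 genes tested, under TMM scaling with its standard error (filled circles), with the library size alone (squares) and with GC and length offsets (diamonds), over a grey band for the middle 50% of all genes tested and a line for their median. TFRC, STEAP3, SLC11A2 and ACO1 lie to its right and SLC40A1 and IREB2 to its left under all 3, while FTL is at -0.21 under TMM scaling and at 0.05 with the offsets.

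Ratios between members within a sample do not depend on the scaling factor of each library. They are not corrected for GC content, or for a length effect that differs between samples. With the GC and length offsets the log2 fold changes were 0.91 for TFRC, -0.11 for FTH1 and 0.05 for FTL, and the ratios were not computed with these offsets. The log2 ratio of TFRC to FTH1, from counts per kilobase, was -4.85, -5.37 and -5.21 in siControl and -3.95, -3.87 and -3.70 in siKMT9α#1. The knock-down samples were all higher, by a mean of 1.30, which is a 2.47-fold rise of uptake receptor over storage transcript. TFRC to FTL rose by 1.28 in the same way, without overlap. The log2 ratio of SLC40A1 to TFRC, exporter to importer, went from -2.49, -2.19 and -2.34 to -4.44, -4.65 and -4.54. That is a 4.61-fold fall, the widest separation of the 5 pairs. Each ratio restates the separate changes of both its genes and is not further evidence. The log2 ratio of IREB2 to ACO1 went from 0.09, 0.08 and -0.09, close to equal levels, to -1.50, -1.35 and -1.32. Each of these 4 pairs had a two-sided exact permutation p = 0.1, the smallest this design allows, and the smallest Benjamini-Hochberg value over the 5 pairs is 0.125. The heavy to light chain ratio, FTH1 to FTL, was -1.26, -1.17 and -1.29 in siControl and -1.30, -1.33 and -1.16 in siKMT9α#1, with overlapping groups, a difference of -0.03 and an exact permutation p = 0.6.

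**Figure D3:**
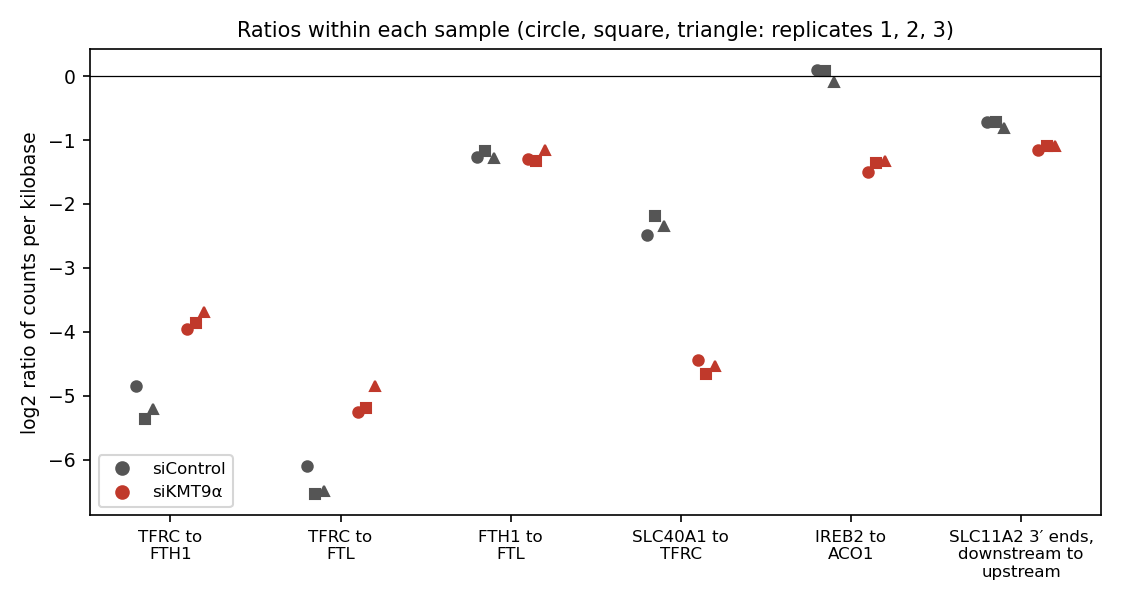
Log2 ratio of counts per kilobase (y axis) for 5 pairs of iron genes and for the 3′ ends of SLC11A2 in each siControl (grey) and siKMT9α#1 (red) sample. The groups are apart for every pair except FTH1 to FTL, and SLC40A1 to TFRC shows the widest gap, -2.34 against -4.54 on average.

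Levels were compared between genes as CPM per kilobase of the counted transcript. FTL ranked 1 of 23180 gene symbols by this level in both groups, and FTH1 ranked 3 in siControl and 7 in siKMT9α#1. FTH1 and FTL together took 0.974% to 1.14% of the counts in siControl and 0.773% to 0.912% in siKMT9α#1. In siControl the median level was 7755 CPM per kilobase for FTL, 3227 for FTH1, 87.0 for TFRC and 63.9 for NCOA4. Below these came IREB2 (26.8 CPM per kilobase) and ACO1 (26.2), whose samples overlapped, then SLC11A2 (19.9), SLC40A1 (17.8), STEAP3 (9.32) and TF (0.135). In siKMT9α#1 the top 4 kept their order, with TFRC at 186 CPM per kilobase. SLC11A2 (46.1) and ACO1 (44), which overlapped, came next, then STEAP3 (19.9), IREB2 (17), SLC40A1 (8.42) and TF (0.0379).

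Other genes of iron handling were read from lists beside these values, and each list's counts stand beside the 37.1% of all genes tested that were called higher, the 38.5% called lower and the median of -0.01 over all genes. Of 21 further transport and storage genes, 16 were tested, of which 7 rose, 6 fell and 3 were not called, with a median log2 fold change of 0.03, which is near what all genes showed. STEAP1, a relative of STEAP3, rose from 9.10 ± 0.987 to 30.3 ± 1.99 CPM (SD, n = 3 each). The iron chaperone gene PCBP2 rose from 107 ± 0.186 to 348 ± 13.9 CPM. Its span overlaps MAP3K12 and it is a close paralog of PCBP1, so that its counts are uncertain. MAP3K12 had 3054 counts in all samples together, against 21745 for PCBP2. SLC39A14, an importer of iron that is not bound to transferrin, rose by 0.47 on the log2 scale, and by 0.27 in the lowest alternative. LCN2, a carrier of iron-binding siderophores, fell from 41.6 ± 1.26 to 11.0 ± 1.10 CPM, and MCOLN1, the lysosomal iron release channel, fell from 18.9 ± 1.6 to 7.33 ± 0.584 CPM (SD, n = 3 each).

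Of 15 genes of iron regulation 12 were tested, and 8 rose, 2 fell and 2 were not called, with a median of 0.58, beside 37.1% higher, 38.5% lower and -0.01 over all genes. ZFP36L1, an RNA decay factor, rose from 47.1 ± 0.555 to 229 ± 11.9 CPM (SD, n = 3 each). BMP6, the ligand that signals liver iron stores, rose from 14.9 ± 0.463 to 35.8 ± 1.51 CPM. Its span overlaps that of TXNDC5 by 479 bases. TXNDC5 had 30983.5 counts in all samples together and BMP6 2464.5, so that the BMP6 counts are uncertain. CUL1, the scaffold of the ligase that contains FBXL5, had a log2 fold change of -0.52, and HFE one of -0.44. FBXL5 itself was at 54.3 ± 1.43 and 51.8 ± 1.31 CPM and was not called (log2 fold change -0.07, edgeR quasi-likelihood adjusted p = 0.249), except with the library size alone (-0.17, adjusted p = 0.00667).

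Of 17 genes of haem synthesis, transport and breakdown, all tested, 11 fell, 2 rose and 4 were not called, with a median of -0.52. The share called in either direction was near the 75.6% of all genes, of which 38.5% were lower and 37.1% higher. HMOX1, whose product frees iron from haem, went from 819 ± 13.0 to 1991 ± 76.8 CPM, a rise of 1.28 ± 0.05 (SE) on the log2 scale. The haem exporter gene FLVCR1 rose by 0.71 on the log2 scale, and by 0.48 in the lowest alternative. UROD, an enzyme of haem synthesis, fell from 51.5 ± 1.84 to 18.9 ± 0.733 CPM, and PGRMC1, a haem-binding membrane protein, from 278 ± 19.5 to 58.7 ± 2.37 CPM (SD, n = 3 each, as for HMOX1). Of 29 genes of iron-sulphur cluster assembly, all tested, 15 fell, 6 rose and 8 were not called, with a median of -0.19, again with a share called near the 75.6% of all genes. NUBPL and NFU1, which serve mitochondrial assembly, had log2 fold changes of -1.54 and -0.91. NDOR1, the reductase of the cytosolic pathway, rose by 1.11 and FDX1, a mitochondrial ferredoxin, by 0.47 on the log2 scale.

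**Figure D4:**
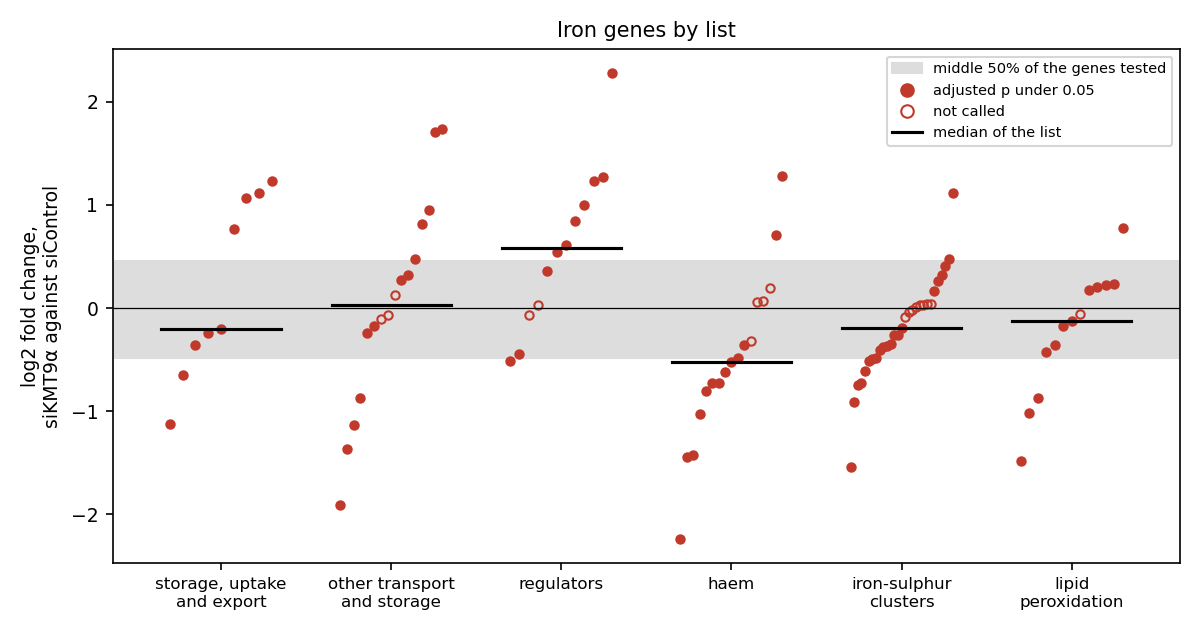
Log2 fold change of siKMT9α#1 against siControl (y axis) for each gene tested in 6 lists of iron genes, the 9 members first, in rank order within a list. Filled points had an adjusted p under 0.05, bars mark each list's median and the grey band the middle 50% of all genes tested, and the haem list has the lowest median and the regulators the highest.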

How the data were processed

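RNA-Seq of A549 cells, 3 siControl and 3 siKMT9a samples, was analysed. According to the study's methods reads were aligned to hg19 with STAR and counted per RefSeq transcript with HOMER (analyzeRepeats). The deposited values are estimated counts in steps of 0.5, since 36.4% are not whole, and were rounded to whole numbers. HOMER's options and its use of strand are not given in the sources used here. Fold change and p-value columns of the authors' own comparison were not used. Of 38767 deposited lines 1182 without symbol or counts were left out.

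For each symbol the transcript with the most counts was kept. The fit used edgeR 4.0.16 in R 4.3.3 with filterByExpr, TMM factors and the quasi-likelihood F test of siKMT9a against siControl, with Benjamini-Hochberg adjustment over 13877 genes. Standard errors are the log2 fold change over the root of F. The fitting code was tested on simulated data. Ratios within samples were compared by two-sided exact permutation. UTRs and pseudogenes came from GENCODE v44lift37 on GRCh37, the build of the deposited positions. Alternatives were edgeR's likelihood-ratio test, DESeq2 1.42.0, other scalings and filters, GC and length offsets (mgcv 1.9.3), a replicate block and each sample left out.

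Totals of 13740097 to 19832396 counts left TF as the only one of the 10 members below the filter, along with 10 untested genes of the other lists, and intervals cover counting error only. The labels call the samples biological replicates without saying whether they came from separate cultures, and p-values measure the spread between these samples. Named genes of each list are the 2 called genes with the largest positive and the 2 with the largest negative fold changes at 1 CPM or more, and HMOX1, SLC39A14, FBXL5, GPX4 and SLC7A11. The members and lists were chosen with earlier results of these data known.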

Additional observations from a re-analysis of the deposited data

How the results depend on the processing

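TFRC, STEAP3, SLC11A2, SLC40A1, ACO1, IREB2 and NCOA4 kept their direction and stayed called under all alternatives run. FTL was 0.0470 on the log2 scale with GC and length offsets and 0.0459 with the replicate block added, against -0.21, and its call was lost without siControl replicate 2 or 3 or siKMT9α#1 replicate 3 (-0.17, -0.16 and -0.12). FTH1 was -0.11 and no longer called with the offsets and the block (edgeR quasi-likelihood adjusted p = 0.0543), which left 3 members called lower. Without 1 sample the difference in the FTH1 to FTL ratio ran from -0.0780 to 0.00852, the higher value without siControl replicate 2, and it was 0.00787 without siKMT9α#1 replicate 2. FBXL5 was -0.17 and GPX4 0.13 with the library size alone. At the study's threshold NCOA4 was also lower, making 3 members against 2, with the likelihood-ratio test, DESeq2, the library size alone and no filter. The same held with the GC and length offsets, with or without the block. At that threshold 29 of the other iron genes were lower with the likelihood-ratio test and 29 with no filter on low counts, against 17. With no filter TF was tested and lower (-2.05 on the log2 scale, adjusted p = 0.0118), which made 6 members lower. The causes were not tested.

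Samples with the same replicate number deviated from their group means with correlations of -0.08, 0.02 and -0.08, and 0 of 6 correlated best with their own number, so that the numbers were not taken as pairs. A replicate block called 5017 genes higher and 5212 lower by adjusted p, against 5150 and 5342, and at the study's threshold 1368 and 974, against 1878 and 1479. With the block alone FTL was -0.21 and TFRC 1.07, and it changed no call of the members. At the study's threshold the likelihood-ratio test called 3086 genes higher and 2876 lower, no filter 3184 and 2886, the GC and length offsets with the block 2711 and 2506, and a fit of every transcript 3830 and 2937 of 24770 transcripts (9288 and 9609 by adjusted p). Without siKMT9α#1 replicate 2 it was 1400 and 926 genes. For the 3′ ends of SLC11A2 the alternatives, added after the data were seen, gave -0.40 to -0.35. Depth limits TF, with 8.5 counts or fewer in a sample.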

Other observations

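Of 15 genes of lipid peroxidation and its control, which iron drives, 13 were tested, and 5 rose, 7 fell and 1 was not called, with a median log2 fold change of -0.13 beside 37.1% higher, 38.5% lower and a median of -0.01 over all genes tested. ACSL4, which loads polyunsaturated fatty acids into phospholipids, went from 163 ± 6.48 to 278 ± 20.8 CPM, a rise of 0.77 ± 0.06 (SE) on the log2 scale (CPM ± SD, n = 3 each, here and below). SLC7A11, the cystine importer that feeds glutathione synthesis, fell from 475 ± 44.2 to 259.9 ± 30.8 CPM, or -0.87 ± 0.07 (SE) on the log2 scale. Its span overlaps the antisense gene SLC7A11-AS1, and the counting is not stated to use strand. SLC7A11-AS1 had 574 counts in all samples together, against 38014 for SLC7A11. HSPB1, a small heat shock protein that protects against iron-dependent death, fell from 317 ± 24.5 to 113 ± 7.41 CPM. GPX4, the peroxidase that removes lipid peroxides, rose from 83.0 ± 6.94 to 97.8 ± 4.30 CPM (log2 fold change 0.24, edgeR quasi-likelihood adjusted p = 0.00140), a call that was lost with the library size alone (0.13, adjusted p = 0.0575). Over the alternatives run its log2 fold change ranged from 0.13 to 0.55.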
